A study of Mus musculus with 51 samples.

Results

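White adipose tissue from mice that had undergone Roux-en-Y gastric bypass (RYGB) was compared with the same tissue from weight-matched, sham-operated mice, over all genes of the deposited table. The comparison used 9 of the 51 libraries of the study, 4 from RYGB mice and 5 from sham mice, chosen by their tissue and surgery labels. It covered 12690 genes. All animals were male C57Bl6 mice with diet-induced obesity. The RYGB mice received the bypass, in which food passes from a small gastric pouch directly into the jejunum. The sham mice received a sham operation and were then given limited food so that their body weight followed that of the RYGB mice. Both groups were moved to a liquid elemental diet after surgery, were brought back in steps to high-fat diet, and were killed at 10 am after a night without food, 9 weeks after the operation. Subcutaneous fat was snap-frozen in liquid nitrogen. Surgery and the rationing of the control animals therefore cannot be told apart. No source used here names the depot within the subcutaneous fat.

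White adipocytes store fatty acids as triglyceride, release them during fasting, and secrete hormones such as leptin whose transcript follows the size of the fat store. They can also make fatty acids from glucose: citrate leaves the mitochondrion, is cleaved to acetyl-CoA in the cytosol and is built into palmitate by acetyl-CoA carboxylase and fatty acid synthase. Subcutaneous fat of mice also holds adipocytes able to turn on a thermogenic programme of mitochondrial biogenesis and uncoupling protein 1.

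Adipocyte transcripts were abundant in all 9 libraries. Levels are CPM, read counts scaled by the authors to a common library total. Each log2 fold change is the RYGB mean minus the sham mean of log2(CPM + 1), with its standard error after ±. A gene "rose" or "fell" where its adjusted p was below 0.05. Adiponectin (Adipoq), a hormone made by adipocytes, had 2059.7, 3252, 2087 and 1882 CPM in the RYGB libraries, against 1889, 1984, 1648, 1459 and 2024 CPM in the sham libraries. The groups overlapped, and the log2 fold change of 0.34 ± 0.20 (SE) did not pass the test (limma, Benjamini-Hochberg adjusted p = 0.179). The adipocyte fatty acid binding protein Fabp4 (16173 ± 6332 CPM in RYGB mice and 11007 ± 1282 CPM in sham mice, SD, n = 4 and 5), the lipid droplet protein Cidec (1862 ± 1087 CPM in RYGB mice and 2009 ± 203 CPM in sham mice) and the adipogenic regulators Pparg (log2 fold change -0.34 ± 0.19) and Cebpa (0.42 ± 0.22) did not pass it either. Of 20 measured genes of adipocyte identity, 5 rose and 3 fell, with a median log2 fold change of 0.22. The regulators Klf15 (1.41 ± 0.34) and Srebf1 (0.84 ± 0.28) were among those that rose. The corepressor Tle3 (-1.14 ± 0.21) and the transcription factor Ebf1 (-0.86 ± 0.17) were among those that fell. In bulk tissue, fewer cells of a type and less RNA per cell cannot be told apart.

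Transcripts of skeletal muscle, liver, epithelium and mesothelium were scarce. The summed level of 17 skeletal muscle genes was 98.9 to 432 CPM in RYGB libraries and 138 to 205 CPM in sham libraries, with RYGB mouse 2 highest. That of 6 liver genes was 61.8 to 131 CPM in RYGB libraries and 71.8 to 332 CPM in sham libraries. Of the epithelial and mesothelial genes looked for, 3 epithelial genes and 1 mesothelial gene were in the table, at no more than 20.6 CPM in sum and 7.3 CPM in any library. The summed level of 6 red blood cell genes was 170 to 774 CPM in RYGB libraries, highest in RYGB mouse 1, and 118 to 237 CPM in sham libraries. That of 10 Schwann cell and nerve genes was 740 to 984 CPM in RYGB libraries and 850 to 1122 CPM in sham libraries. Lymphocyte genes were uneven. The B cell gene Ms4a1 had 1.3, 0, 26.1 and 101 CPM in the RYGB libraries, against 3, 0.6, 1.3, 1.1 and 1.6 CPM in the sham libraries, so that RYGB mice 3 and 4 stood far above all others. The 7 measured B cell and lymph node genes were also taken as log2(CPM + 1) minus the mean of the sham libraries. Their median was -0.03, -1.32, 2.94 and 5.2 in RYGB mice 1 to 4. Their summed level, immunoglobulins included, overlapped between the groups, with 142 to 985 CPM in RYGB libraries and 41.2 to 1299.8 CPM in sham libraries. 17 T and natural killer cell genes summed to 522 CPM in RYGB mouse 4, against at most 67.7 CPM in a sham library.

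The RYGB animals differed more from each other than the sham animals did. Across genes on the log2 scale, pairs of RYGB libraries correlated at 0.914 to 0.955 and pairs of sham libraries at 0.978 to 0.989. The median SD of a gene was 0.394 in RYGB libraries and 0.174 in sham libraries. RYGB mouse 3 was nearest to the sham libraries (0.932 to 0.953) and RYGB mouse 2 farthest (0.837 to 0.879).

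Of the 12690 genes, 5153 passed the test (40.6%), 1812 higher in RYGB mice (14.3%) and 3341 lower (26.3%). A fold change of at least 1 on the log2 scale was seen among the called genes in 795 that rose and 1227 that fell, and one of at least 4 in 11 that rose and 20 that fell. For 4268 genes (33.6%) the 2 groups did not overlap at all. The split between directions depended on scaling: over all genes the median log2 fold change was -0.163 in CPM and 0.005 after median-of-ratios scaling, and with that scaling 2681 genes rose (21.1%) and 2593 fell (20.4%), 41.6% in all. The scaling thus shifted fold changes by about 0.167, and the direction of smaller changes depends on it. Every count of a gene list is to be read beside these shares of all genes.

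Fold changes also followed the exon length of the genes. The median log2 fold change was 0.35 in the shortest eighth of genes (60 to 2054 bases of exon) and -0.51 in the longest eighth (9282 to 123179 bases). In RYGB mouse 3 alone the same medians were 0.15 and -0.17, so the trend was steep in 3 of the 4 RYGB libraries. With the trend of each library removed, 2437 genes rose (19.2%) and 2385 fell (18.8%), 38.1% in all, and 3671 of the genes called then were also called without the removal. Where the removal moved a group's count in either direction by 2 genes or more, both counts are given. The part of length in any result was not tested.

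**Figure D1:**
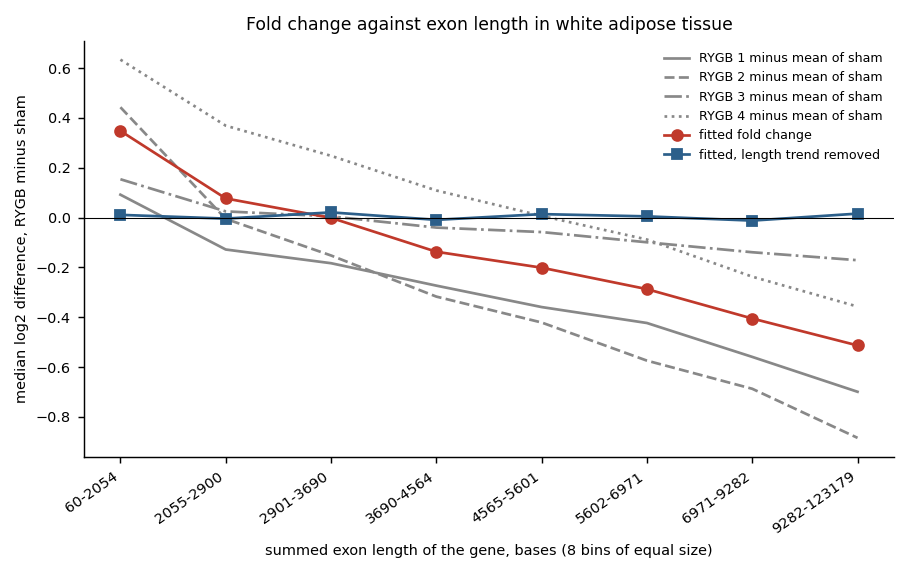
Median log2 difference between RYGB and sham fat (y axis) in 8 equal bins of genes by summed exon length in bases (x axis). Red circles are the fitted fold change, which goes from 0.35 in the shortest to -0.51 in the longest bin, blue squares the fit with each library's length trend removed, and grey lines each RYGB library minus the mean of the sham libraries.

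Leptin and the genes whose transcripts accompany fat expansion in mice were the most reduced group. Of 8 such genes, 7 fell, with a median log2 fold change of -4.10, and this count was the same whichever library was left out. Leptin (Lep), the hormone that reports fat stores to the brain, had 34.2, 1.2, 43.2 and 42.2 CPM in the RYGB libraries, against 2068, 1561, 2139, 2069 and 436 CPM in the sham libraries. Every RYGB library lay at least 10 times below every sham library, with RYGB mouse 2 lowest of all and sham mouse 5 lowest among the sham mice. The log2 fold change was -6.20 ± 0.85 (adjusted p = 0.000526). Mest, an imprinted gene of the hydrolase fold family, had 7.8, 1.8, 41.6 and 45 CPM in the RYGB libraries, against 2296, 1209, 1936, 2445 and 705 CPM in the sham libraries (log2 fold change -6.72 ± 0.76, adjusted p = 0.000221). Sfrp5, a secreted antagonist of Wnt ligands, had 2.7, 5.3, 3.7 and 3.9 CPM in the RYGB libraries, against 356, 258, 323, 407 and 101 CPM in the sham libraries (log2 fold change -5.77 ± 0.36, adjusted p = 1.29e-05). Neither gene overlapped between the groups, and sham mouse 5 was again the lowest sham library for both.

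Npr3, the clearance receptor that removes natriuretic peptides, averaged 142 ± 109 CPM in RYGB mice and 2619 ± 924 CPM in sham mice (SD, n = 4 and 5), a log2 fold change of -4.37 ± 0.47. The imprinted zinc finger gene Peg3 averaged 307 ± 156 CPM in RYGB mice and 4036 ± 589.6 CPM in sham mice (log2 fold change -3.83 ± 0.28), and the ligand gene Bmp3 14.1 ± 4.12 CPM in RYGB mice and 107 ± 52.1 CPM in sham mice (-2.69 ± 0.44). Caveolin 2 (Cav2) fell as well (-1.47 ± 0.42). Caveolin 1 (Cav1), the main coat protein of adipocyte caveolae, was the member that did not pass the test, with 1949, 600.0, 2356 and 2071 CPM in the RYGB libraries, against 2946, 2903, 2619.8, 2789 and 1728 CPM in the sham libraries. The RYGB values of Cav1 straddle the lowest sham value, with RYGB mouse 2 far below the rest.

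**Figure D2:**
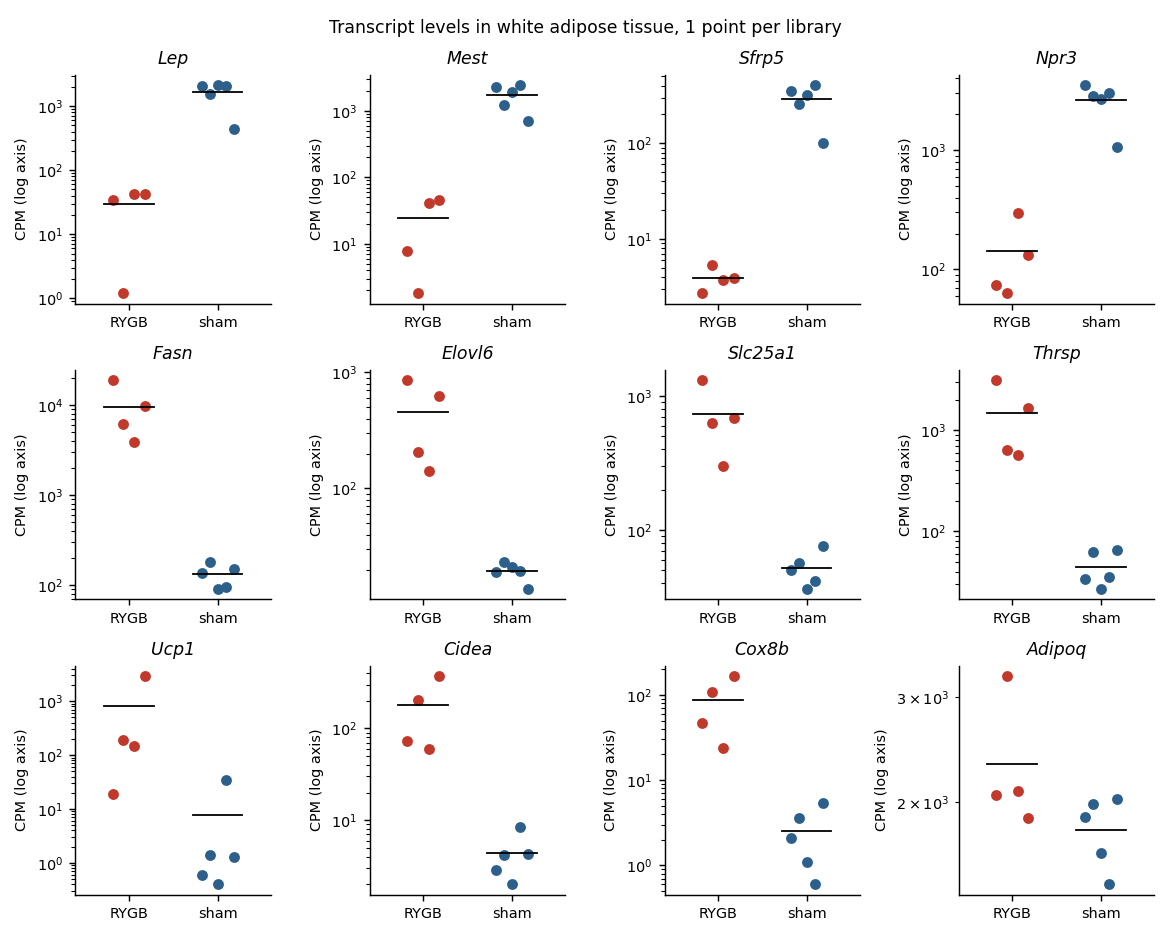
CPM on a log axis of 12 genes in each library (points; bars are group means), RYGB (4 mice, red) left and sham (5 mice, blue) right. Lep, Mest, Sfrp5 and Npr3 lie lower and Fasn, Elovl6, Slc25a1, Thrsp, Cidea and Cox8b higher in every RYGB library than in any sham library, Ucp1 overlaps through sham mouse 4 at 35 CPM, and Adipoq overlaps.

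Other secreted products went in both directions. Of 19 measured adipokine genes, 4 rose and 8 fell (4 and 6 with median-of-ratios scaling). Resistin (Retn, 2.18 ± 0.36), angiotensinogen (Agt, 3.14 ± 0.54) and retinol binding protein 4 (Rbp4, 1.07 ± 0.20) rose. Adipsin (Cfd), the complement factor D that adipocytes secrete, had 12987, 25600.3, 5185 and 7641 CPM in the RYGB libraries, against 1790.0, 2256, 2126, 2239 and 4254 CPM in the sham libraries. Each RYGB value exceeded each sham value, RYGB mouse 2 was highest, and sham mouse 5 was nearest to the RYGB mice (log2 fold change 2.15 ± 0.42, adjusted p = 0.00311). The ligand gene Bmp4 fell (-1.46 ± 0.19), at a low level in both groups.

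The enzymes that turn glucose carbon into fatty acids rose together. Of 19 genes of de novo lipogenesis, 13 rose and 0 fell, with a median log2 fold change of 2.26, beside -0.16 over all genes. Fatty acid synthase (Fasn) had 18833, 6124, 3844 and 9722 CPM in the RYGB libraries, against 137, 181, 90.4, 95.6 and 149 CPM in the sham libraries. The lowest RYGB library was over 20 times above the highest sham library, and the mean was 73.8-fold higher (log2 fold change 5.99 ± 0.40, adjusted p = 1.98e-05). Thrsp, the nuclear protein Spot 14 that accompanies lipogenesis, had 3108, 635, 565 and 1664 CPM in the RYGB libraries, against 33.5, 62.1, 27, 35.3 and 65.5 CPM in the sham libraries (4.76 ± 0.48). Slc25a1, the carrier that brings citrate out of the mitochondrion, had 1309, 628, 303 and 692 CPM in the RYGB libraries, against 50.6, 56.8, 36.3, 41.7 and 75.8 CPM in the sham libraries (3.65 ± 0.36). In all 3 genes RYGB mouse 1 was the highest and RYGB mouse 3 the lowest of the RYGB mice, and no library of one group reached the other.

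The windows around the transcription starts of these 3 genes are shown beside that of Lep, which went the other way, to let the promoters of genes that moved together be read side by side. Each runs from 250 bases before to 50 after the RefSeq start (GRCm38.p6) and is written 5′ to 3′ on the gene's own strand. Capitals mark matches, on either strand, to 3 motifs: the CCAAT box, spelled CCAAT, the E-box, spelled CACGTG, and the GC box, spelled GGGCGG. The windows lie at chr11:120824498-120824797 (minus strand), chr7:97417501-97417800 (minus), chr16:17928170-17928469 (minus) and chr6:29059971-29060270 (plus).
Fasn: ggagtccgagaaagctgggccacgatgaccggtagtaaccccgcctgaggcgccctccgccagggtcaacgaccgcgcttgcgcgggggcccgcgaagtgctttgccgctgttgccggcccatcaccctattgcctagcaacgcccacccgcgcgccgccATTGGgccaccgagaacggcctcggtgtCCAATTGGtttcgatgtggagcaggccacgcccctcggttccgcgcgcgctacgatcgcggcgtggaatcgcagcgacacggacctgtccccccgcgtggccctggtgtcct
Thrsp: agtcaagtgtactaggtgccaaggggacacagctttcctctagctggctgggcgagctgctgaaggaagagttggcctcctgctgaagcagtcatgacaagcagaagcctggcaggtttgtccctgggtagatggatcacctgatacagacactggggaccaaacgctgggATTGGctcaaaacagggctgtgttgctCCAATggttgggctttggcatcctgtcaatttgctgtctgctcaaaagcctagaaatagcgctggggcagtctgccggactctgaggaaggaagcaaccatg
Slc25a1: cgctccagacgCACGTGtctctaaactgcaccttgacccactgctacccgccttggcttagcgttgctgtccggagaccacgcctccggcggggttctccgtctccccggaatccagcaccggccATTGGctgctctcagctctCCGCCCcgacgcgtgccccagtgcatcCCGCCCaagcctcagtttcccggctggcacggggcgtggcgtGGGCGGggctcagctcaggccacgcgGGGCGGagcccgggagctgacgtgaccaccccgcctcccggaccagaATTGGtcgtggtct
Lep: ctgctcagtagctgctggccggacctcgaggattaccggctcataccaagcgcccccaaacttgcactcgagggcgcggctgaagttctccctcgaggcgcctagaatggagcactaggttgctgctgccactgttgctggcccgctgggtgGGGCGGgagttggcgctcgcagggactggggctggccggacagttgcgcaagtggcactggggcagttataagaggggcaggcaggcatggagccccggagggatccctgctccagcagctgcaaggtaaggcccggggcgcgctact
CCAAT matched 3 times in the Fasn window, 2 of them overlapping on opposite strands, 2 times in Thrsp and 2 times in Slc25a1, and had no match in the Lep window; 37.4% of 32851 RefSeq promoter windows of this length hold one. CACGTG matched once, in Slc25a1 (7.15% of windows), and GGGCGG 4 times in Slc25a1 and once in Lep (35.7%). A match describes the letters of the window and is not evidence of a bound factor.

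Along the same route, ATP citrate lyase (Acly, 2.51 ± 0.67), which cleaves exported citrate, acetyl-CoA carboxylase 1 (Acaca, 2.70 ± 0.34), which makes malonyl-CoA, the acetate-activating Acss2 (3.11 ± 0.49) and the elongase Elovl6 (4.14 ± 0.46), which lengthens palmitate, all rose. The NADPH source malic enzyme (Me1, 2.26 ± 0.37) rose as well, as did transketolase (Tkt, 3.18 ± 0.31) and transaldolase (Taldo1, 2.25 ± 0.35) of the pentose phosphate pathway. The mitochondrial dicarboxylate carrier Slc25a10 rose by 3.29 ± 0.35. The regulator Srebf1, which drives such genes in liver, averaged 354 ± 138 CPM in RYGB mice and 189 ± 44.9 CPM in sham mice (SD, n = 4 and 5). Its adjusted p was 0.0338, and the call was lost in several fits that left out 1 library (adjusted p up to 0.0923). Its part in the rise of these genes was not tested. Mlxipl, which encodes the glucose-responsive factor ChREBP, had a log2 fold change of 0.34 ± 0.27 (adjusted p = 0.331). Stearoyl-CoA desaturase 1 (Scd1), one of the most abundant transcripts in the tissue, had 117988, 32043, 104672 and 57338 CPM in the RYGB libraries, against 66836, 41250.3, 54908, 51101 and 54984 CPM in the sham libraries. The groups overlapped at both ends and the difference did not pass the test (0.38 ± 0.36, adjusted p = 0.421).

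Steps from fatty acids to triglyceride rose in part. Of 14 genes of triglyceride synthesis, 7 rose and 0 fell (9 and 1 with the length trend removed). Agpat2, which adds the second fatty acid, rose by 2.79 ± 0.44, and Dgat1, which adds the third, by 2.14 ± 0.30. Pck1, which supplies glycerol phosphate from pyruvate in fat, averaged 4409 ± 1068 CPM in RYGB mice and 2069 ± 636 CPM in sham mice (SD, n = 4 and 5; 1.11 ± 0.24). The phosphatidate phosphatase Lpin1 had a log2 fold change of 0.94 ± 0.38 that did not pass (adjusted p = 0.0708). Of 14 genes of fatty acid uptake and activation, 5 rose and 3 fell, against 5 and 1 with the length trend removed. Lipoprotein lipase (Lpl), which frees fatty acids from circulating triglyceride, had 17211, 20737, 17648 and 14852 CPM in the RYGB libraries, against 8817, 10461, 6654, 6974 and 9294 CPM in the sham libraries (1.07 ± 0.20, adjusted p = 0.0022). The acyl-CoA synthetase Acsl1 rose by 1.24 ± 0.25. The fatty acid transporter Cd36 went the other way, with 7411, 6174, 10917 and 6160.4 CPM in the RYGB libraries, against 14049.6, 15715, 14131, 14988 and 13792 CPM in the sham libraries (-0.96 ± 0.20, adjusted p = 0.0042). The groups did not overlap for Lpl, Acsl1 or Cd36.

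Of 23 genes of lipolysis and the lipid droplet, 5 rose and 5 fell (7 and 5 with median-of-ratios scaling). Over all genes 14.3% rose and 26.3% fell (21.1% and 20.4% with that scaling). The β3-adrenergic receptor Adrb3 had 311, 484, 533 and 627 CPM in the RYGB libraries, against 47.8, 109, 54.3, 84.9 and 298 CPM in the sham libraries. The groups came close only through sham mouse 5 (2.33 ± 0.46, adjusted p = 0.00319). The antilipolytic receptor Hcar2 (2.08 ± 0.26) and seipin (Bscl2, 1.68 ± 0.27), which shapes nascent droplets, rose. The triglyceride lipase Pnpla2 rose by 0.66 ± 0.22, a call lost in several fits without 1 library (adjusted p up to 0.0782). The droplet coat protein Plin4 averaged 1275 ± 284 CPM in RYGB mice and 4028 ± 271 CPM in sham mice (SD, n = 4 and 5; -1.68 ± 0.17), and Hilpda, an inhibitor of that lipase, fell (-1.96 ± 0.22).

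Glucose handling rose alongside. Of 19 genes of glucose uptake and glycolysis, 13 rose and 1 fell (median 1.04). The insulin-responsive glucose transporter Slc2a4 had 669.9, 307, 245 and 321 CPM in the RYGB libraries, against 187, 211, 166, 182 and 198 CPM in the sham libraries. RYGB mouse 1 stood above the other RYGB mice, and the groups did not overlap (0.92 ± 0.25, adjusted p = 0.0145). Aldolase A (Aldoa, 2.02 ± 0.30), triosephosphate isomerase (Tpi1, 1.86 ± 0.26), phosphofructokinase (Pfkl, 1.58 ± 0.27) and lactate dehydrogenase A (Ldha, 1.46 ± 0.21) rose. So did Gys2, the glycogen synthase best known from liver (4.21 ± 0.36). The fructose transporter Slc2a5 had 32.3, 4.3, 1.2 and 13.2 CPM in the RYGB libraries and at most 0.1 CPM in any sham library (3.05 ± 0.62).

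Transcripts of thermogenic adipocytes were higher in RYGB fat. Of 21 measured genes, 17 rose and 1 fell, with a median of 2.33. Uncoupling protein 1 (Ucp1), which lets protons back into the mitochondrion as heat, had 18.6, 191, 149 and 2927 CPM in the RYGB libraries, against 0.6, 1.4, 0.4, 35 and 1.3 CPM in the sham libraries. RYGB mouse 4 was far above the others, and sham mouse 4 reached above RYGB mouse 1, so the groups overlapped. The log2 fold change was 5.90 ± 1.31 (adjusted p = 0.00553), and it did not pass with library weights (5.28, adjusted p = 0.0904).

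Cidea, a droplet protein of brown and beige adipocytes, had 72.8, 206, 59.2 and 372 CPM in the RYGB libraries, against 2.9, 4.2, 2, 8.4 and 4.3 CPM in the sham libraries (4.78 ± 0.52, adjusted p = 0.000177). The elongase Elovl3, known from cold-exposed brown fat, had 27.7, 111, 9.5 and 90.6 CPM in the RYGB libraries, against 0.3, 0.1, 0.1, 0.9 and 0.1 CPM in the sham libraries (5.05 ± 0.60). The cytochrome oxidase isoform Cox8b had 46.7, 108, 23.7 and 166 CPM in the RYGB libraries, against 2.1, 3.6, 1.1, 0.6 and 5.4 CPM in the sham libraries (4.44 ± 0.56). None of these 3 genes overlapped between groups, and RYGB mouse 3 was the lowest RYGB library in each. Cox7a1 (3.90 ± 0.65), the other muscle and brown fat isoform, the proton channel Otop1 (3.06 ± 0.44), the kinase Pank1 of coenzyme A synthesis (2.85 ± 0.35), the mitochondrial ion exchanger Letm1 (1.81 ± 0.20) and the amino acid transporter Slc36a2 (1.69 ± 0.28) rose, as did the coactivator Ppargc1a (1.16 ± 0.24). Skeletal muscle shares the Cox isoforms. Of its 17 marker genes, 1 rose and 1, the actin Acta1, fell (-2.11 ± 0.53), against 4 and 1 with the length trend removed. Their median was 0.59, and their summed level, given above, was highest in RYGB mouse 2 and otherwise overlapped between the groups. The part of muscle transcripts in the Cox values was not tested.

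All 37 measured genes of the respiratory chain and ATP synthase rose, cytochrome c (Cycs) included. The median was 1.74, and the count was 37 also with median-of-ratios scaling, with the length trend removed and without any 1 library. Their summed level was 17612, 24064, 10180 and 21207 CPM in RYGB mice 1 to 4 and 4954 to 6458 CPM in the sham mice. RYGB mouse 3 was again the lowest of its group. The medians by complex were 1.73 for 11 subunits of complex I, 1.61 for 4 of complex II, 1.94 for 6 of complex III, 1.93 for 9 of complex IV and 1.47 for 6 of ATP synthase. Sdhb, the iron-sulphur subunit of succinate dehydrogenase, had 554, 729, 291 and 691 CPM in the RYGB libraries, against 128, 169, 129, 125 and 166 CPM in the sham libraries (1.90 ± 0.25, adjusted p = 0.000464). The steepest was Uqcrq of complex III (3.11 ± 0.40). Uqcrfs1 (2.11 ± 0.27), Cox5a (2.30 ± 0.28), Ndufa4 (1.74 ± 0.28), Sdhd (1.72 ± 0.20), Atp5b (1.45 ± 0.23), Sdha (1.21 ± 0.19) and Ndufs1 (1.20 ± 0.16) lay below it.

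**Figure D3:**
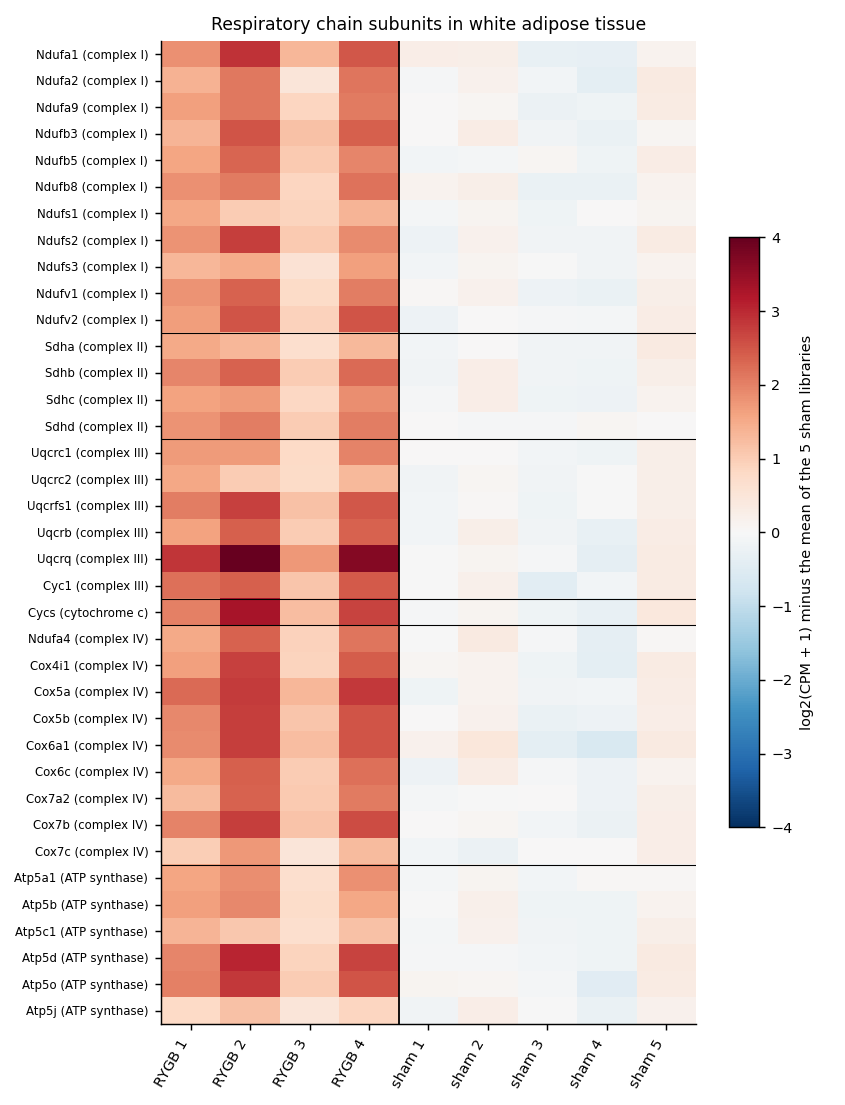
Level of 37 respiratory chain and ATP synthase genes (rows, grouped by complex) in each library (columns, RYGB left of the black line), as log2(CPM + 1) minus the mean of the 5 sham libraries. All rows are higher in the RYGB libraries, least so in RYGB mouse 3.

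The pathways that feed the chain rose with it. Of 24 genes of the citric acid cycle and pyruvate entry, 23 rose and 0 fell (median 1.65). The mitochondrial pyruvate carrier subunits Mpc1 (1.72 ± 0.17) and Mpc2 (2.17 ± 0.26), and the pyruvate dehydrogenase subunits Pdhb (2.37 ± 0.25) and Dlat (2.06 ± 0.19) rose. Pyruvate carboxylase (Pcx), which refills oxaloacetate and feeds citrate export in fat, had 3246, 2215, 1003 and 1190.4 CPM in the RYGB libraries, against 302, 364, 217, 235 and 473 CPM in the sham libraries, with no overlap (2.48 ± 0.35, adjusted p = 0.00064). The member that did not pass was Pdk4, the kinase that shuts pyruvate dehydrogenase during fasting (-0.53 ± 0.28, adjusted p = 0.149). Of 21 genes of fatty acid oxidation, 18 rose and 1 fell (median 1.31). Acadvl (2.24 ± 0.30), Acadl (1.66 ± 0.27), Hadha (1.71 ± 0.19), Cpt2 (1.45 ± 0.14) and the peroxisomal Ehhadh (2.44 ± 0.28) rose. The one that fell was Cpt1a, the liver-type transferase that admits fatty acids to the mitochondrion, with 27.9, 19.3, 56.5 and 45.5 CPM in the RYGB libraries, against 154, 141, 133, 124 and 89.2 CPM in the sham libraries (-1.85 ± 0.29, adjusted p = 0.000963).

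Branched-chain amino acid breakdown and sterol synthesis followed less completely. In the branched-chain pathway 16 of 22 genes rose and 0 fell (median 0.76), with Bcat2, the mitochondrial aminotransferase of the first step, at 2.38 ± 0.35, the dehydrogenase subunit Bckdha at 1.22 ± 0.23, its inhibitory kinase Bckdk at 1.04 ± 0.19 and the leucine-specific carboxylase Mccc1 at 1.26 ± 0.18. In sterol synthesis 11 of 24 genes rose and 1 fell. Acat2 (2.17 ± 0.25), Pmvk (2.30 ± 0.41), Nsdhl (1.86 ± 0.29) and the sterol sensor partner Insig1 (1.58 ± 0.39) rose. Hmgcs1, an early enzyme of the pathway, had a log2 fold change of -0.72 ± 0.35 (adjusted p = 0.116).

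Among genes of insulin and growth hormone signalling, more fell than rose, as was so over all genes (26.3% and 14.3%). Of 20 insulin signalling genes, 2 rose and 8 fell, against 4 and 4 with the length trend removed. With that removal 19.2% of all genes rose and 18.8% fell, so the insulin counts then lay near the share of all genes. The insulin receptor (Insr), the receptor tyrosine kinase itself, did not pass (-0.42 ± 0.22, adjusted p = 0.145). The adaptor Irs2 had 29.8, 17.5, 17.5 and 14.4 CPM in the RYGB libraries, against 70.8, 52.5, 49.8, 52.4 and 61.7 CPM in the sham libraries, with no overlap (-1.53 ± 0.20, adjusted p = 0.000443). Grb14, an adaptor that inhibits the insulin receptor (-2.18 ± 0.41), the pseudokinase Trib3 (-1.44 ± 0.26) and Gsk3b, the kinase that restrains glycogen synthase (-1.19 ± 0.23), fell too. Of 15 genes of the growth hormone and IGF axis, 1 rose and 7 fell. The growth hormone receptor (Ghr) had 1132, 1108, 1132 and 580.3 CPM in the RYGB libraries, against 2447, 2159, 3062, 2906 and 1764 CPM in the sham libraries (-1.34 ± 0.25, adjusted p = 0.00217). RYGB mouse 4 was lowest and the groups did not overlap. Igf1 had 275, 201, 678 and 274 CPM in the RYGB libraries, against 356, 330.1, 257, 339 and 341 CPM in the sham libraries. The groups overlapped, with RYGB mouse 3 above all others (-0.02 ± 0.30, adjusted p = 0.967). The binding protein Igfbp3 (-2.87 ± 0.45), the receptor Igf1r (-1.21 ± 0.21) and Igf2 (-1.50 ± 0.29) fell.

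Genes of the extracellular matrix and of the signals that act in it were lower in RYGB fat. Of 38 matrix enzymes, matricellular and TGF-β response genes, 1 rose and 25 fell (median -1.02), against 0 and 21 with the length trend removed. Thrombospondin 1 (Thbs1), a matricellular protein that activates TGF-β, had 57.2, 65.9, 116 and 53.8 CPM in the RYGB libraries, against 1073, 401, 1358, 1304 and 572 CPM in the sham libraries (-3.59 ± 0.38, adjusted p = 0.000165). Lysyl oxidase (Lox), which cross-links collagen and elastin, had 67.6, 106, 195 and 93.5 CPM in the RYGB libraries, against 1023, 969, 1329, 984 and 671 CPM in the sham libraries (-3.17 ± 0.29, adjusted p = 7.35e-05). Neither gene overlapped between groups, and RYGB mouse 3 was the RYGB library nearest to the sham mice in both. Thbs2 (-4.11 ± 0.35), the aggrecanase Adamts5 (-3.37 ± 0.37), the protease inhibitor Timp3 (-1.37 ± 0.18) and the proteoglycan decorin (Dcn, -1.10 ± 0.21) fell. Sparc, an abundant matricellular protein, did not pass (-0.74 ± 0.29, adjusted p = 0.0594).

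The collagens themselves moved less. Of 21 collagen genes, 0 rose and 7 fell, with a median of -0.47. With the length trend removed, 5 fell and the median came to -0.04. Col18a1, the source of endostatin, fell (-1.41 ± 0.26). Genes of progenitor cells gave 1 rise and 4 falls among 15, a share of falls near the 26.3% of all genes. The receptor Pdgfra (-1.08 ± 0.18) and tissue factor (F3, -1.37 ± 0.20) were among those that fell.

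Among 16 Wnt ligands, receptors and modulators, 0 rose and 13 fell (median -1.15), against 0 and 11 with the length trend removed. Besides Sfrp5 they included Wisp2, a matricellular Wnt target, with 0.7, 0.6, 1.3 and 1.4 CPM in the RYGB libraries, against 246, 116, 295, 256 and 47.6 CPM in the sham libraries (-6.35 ± 0.47, adjusted p = 2.66e-05). Every RYGB library was at or below 1.4 CPM while every sham library was at or above 47.6 CPM. The receptors Fzd4 (-2.69 ± 0.44) and Lgr4 (-1.94 ± 0.36) and the nuclear effector Tcf7l2 (-1.10 ± 0.14) fell. In BMP and FGF signalling 1 of 29 genes rose and 22 fell (median -0.95), against 1 and 17 with the length trend removed and 2 and 18 with median-of-ratios scaling. The activin antagonist Fstl3 (-3.79 ± 0.33), the BMP antagonist Chrdl1 (-2.16 ± 0.28), the ligand Bmp2 (-1.77 ± 0.21) and the receptor Fgfr1 (-0.91 ± 0.19) fell, so that ligands, antagonists and receptors were all among the reduced genes.

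Imprinted genes, many of which act on growth before weaning, gave 0 rises and 10 falls among 16. Beside Mest and Peg3, which this set shares with the fat expansion genes, Peg10 had 6.6, 2.8, 6.1 and 4.7 CPM in the RYGB libraries, against 375, 168, 372, 449 and 34.5 CPM in the sham libraries (-5.15 ± 0.65, adjusted p = 0.000358). The groups did not overlap, and sham mouse 5 was again the lowest sham library. Plagl1, a zinc finger regulator of other imprinted genes, fell (-1.78 ± 0.31). Zim1, the imprinted neighbour of Peg3, fell to 1.9, 0.9, 8.3 and 1.9 CPM in the RYGB libraries, against 208, 146, 247, 196 and 223 CPM in the sham libraries (-5.85 ± 0.38).

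Contractile and caveolar genes were lower as well. Of 14 mural and smooth muscle genes, 2 rose and 9 fell (6 with median-of-ratios scaling and 7 with the length trend removed). Smooth muscle actin (Acta2) had 32.7, 71.8, 29.8 and 37.1 CPM in the RYGB libraries, against 961, 769, 1002, 614 and 247 CPM in the sham libraries (-3.97 ± 0.40, adjusted p = 0.000125). Synpo2, an actin-bundling protein, had 7.8, 12.9, 21.4 and 18.5 CPM in the RYGB libraries, against 826, 495, 653, 506 and 259.8 CPM in the sham libraries (-5.08 ± 0.34, adjusted p = 1.98e-05). Both were lower in every RYGB mouse, and caldesmon (Cald1) fell too (-1.57 ± 0.21). Of the pericyte genes, Rgs5 did not pass (-0.85 ± 0.38, adjusted p = 0.096) and Cspg4, the proteoglycan NG2, rose (1.28 ± 0.24). Of 8 caveolar genes, 5 fell and 0 rose. They included Ptrf (-0.94 ± 0.17) and Prkcdbp (-1.76 ± 0.29), which encode the cavins that stabilise the caveolar coat. Endothelial genes gave 2 rises and 2 falls among 18, where 14.3% of all genes rose and 26.3% fell.

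**Figure D4:**
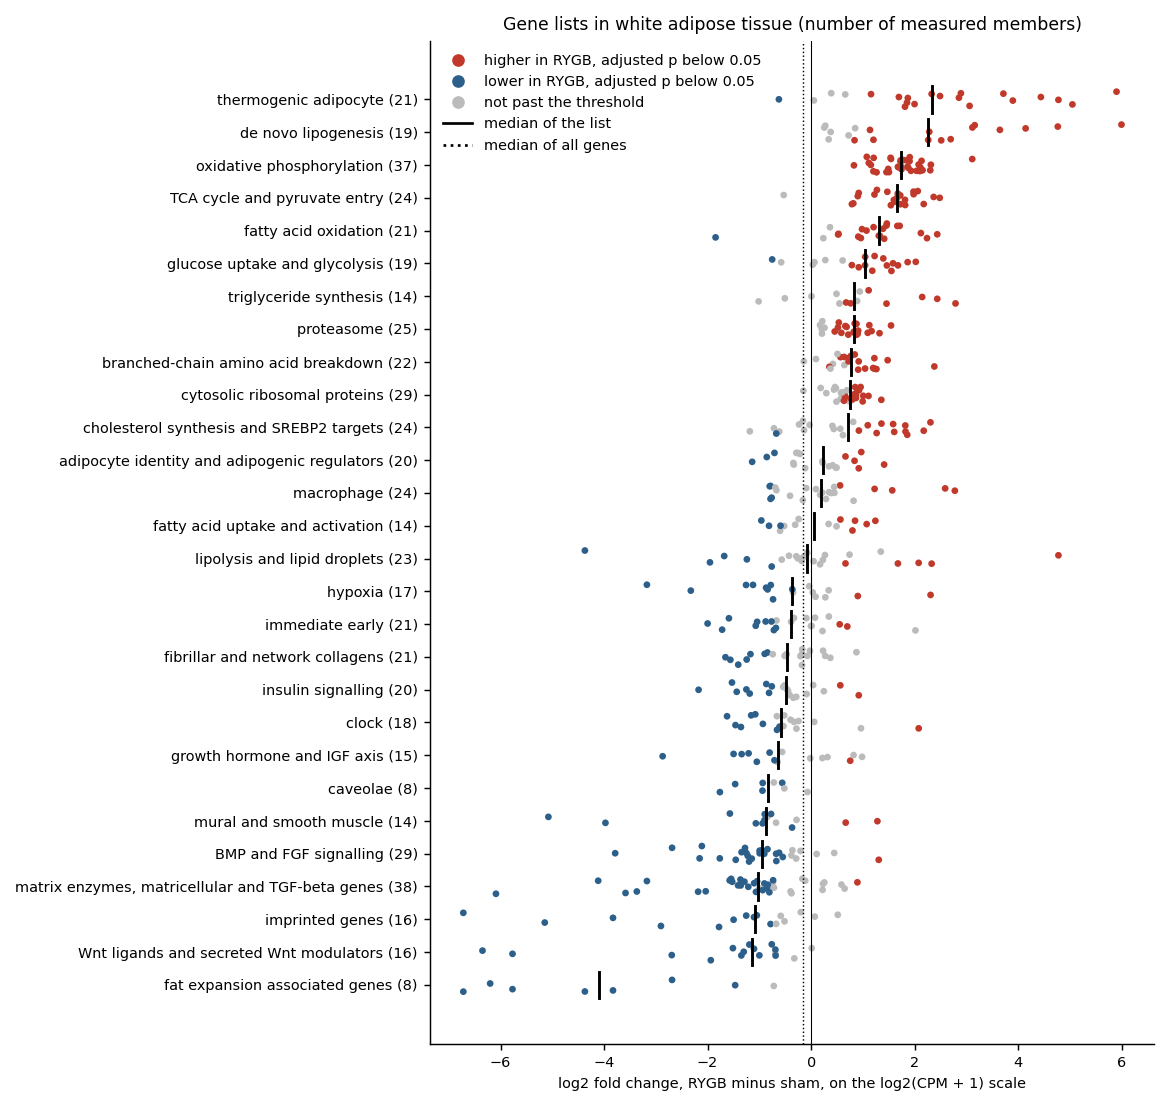
Log2 fold change, RYGB minus sham (x axis), of each measured member of 28 gene lists (rows, with the number of members), ordered by median. Red points rose and blue points fell at an adjusted p below 0.05, grey points did not pass, black bars are list medians (2.33 for the thermogenic and -4.10 for the fat expansion list) and the dotted line is the median of all genes, -0.163.

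Hypoxia and clock genes were lower in part. Of 17 hypoxia genes, 2 rose and 9 fell, against 3 and 7 with the length trend removed. Ndrg1, a stress-responsive hypoxia target (-2.33 ± 0.19), and the factor Hif1a itself (-0.87 ± 0.21) fell. Egln3, the prolyl hydroxylase that marks HIF for degradation, rose (2.31 ± 0.35). Of 18 clock genes, 1 rose and 8 fell, where 26.3% of all genes fell. With the length trend removed 4 fell, a share near the 18.8% of all genes that fell then. Per2 (-1.46 ± 0.32), Nr1d2 (-0.93 ± 0.21) and Bhlhe41 (-1.63 ± 0.43), which all repress parts of the clock, fell. Nfil3, also a repressor, rose (2.08 ± 0.70), with 9.5, 156, 9.5 and 18.5 CPM in the RYGB libraries, against 3.5, 4.6, 3.6, 3.7 and 10.2 CPM in the sham libraries. The groups overlapped through sham mouse 5, and RYGB mouse 2 was far above the rest. The call of Nfil3 was lost in several fits without 1 library (adjusted p up to 0.0742), and without RYGB mouse 2 its log2 fold change was 1.18. All animals were killed at 1 clock time, so phase and level cannot be told apart. Of 21 immediate early genes, 9 fell and 2 rose, against 4 and 2 with median-of-ratios scaling and 7 and 1 with the length trend removed. Fos (-2.0 ± 0.35) and Klf6 (-1.72 ± 0.22), transcription factors induced within minutes of a stimulus, fell in all of these fits.

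Immune genes showed no common direction. Of 24 macrophage genes, 5 rose and 4 fell (6 and 1 with median-of-ratios scaling, 4 and 2 with the length trend removed). Over all genes 14.3% rose and 26.3% fell. The general macrophage marker Emr1, a surface receptor, had 37.8, 43.2, 52.2 and 12 CPM in the RYGB libraries, against 38.6, 27.3, 19.3, 36 and 32.2 CPM in the sham libraries (0.10 ± 0.37, adjusted p = 0.85). The resident macrophage genes Marco, a scavenger receptor (2.78 ± 0.41), and Timd4, a receptor for apoptotic cells (2.59 ± 0.61), rose, and the lysosomal Cd68 fell (-0.78 ± 0.23). Among 19 genes of lipid-associated macrophages, 4 rose and 6 fell, where 26.3% of all genes fell. The lysosomal protease Ctsd rose (1.01 ± 0.20), and the lysosomal glycoprotein Gpnmb (-2.08 ± 0.38) and the proton pump subunit Atp6v0d2 (-2.47 ± 0.41) fell. The summed level of these genes was 5416 to 6699 CPM in RYGB libraries and 3535 to 4773 CPM in sham libraries, with no overlap. Such a sum follows its abundant genes, and Ctsd alone averaged 1652 CPM in RYGB mice and 838 CPM in sham mice. Taken gene by gene, 9 of the 19 were higher in RYGB mice, and the middle value was -0.32 on the log2 scale. The sum therefore does not show a common rise of these genes. Of 17 cytokine and chemokine genes, 2 rose and 1 fell. Ccl8 (2.84 ± 0.34) was one that rose. Cxcl13, the chemokine that draws B cells into follicles, had 51.8, 133, 45.5 and 87.8 CPM in the RYGB libraries, against 1.3, 0.9, 3.5, 1.2 and 0.9 CPM in the sham libraries (4.93 ± 0.35, adjusted p = 2.43e-05). All 4 RYGB libraries were above all sham libraries, whereas Ms4a1 was high only in RYGB mice 3 and 4.

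Over all genes 14.3% rose and 26.3% fell, beside which the next counts stand. Of 28 interferon response genes, 6 rose and 2 fell (8 and 1 with median-of-ratios scaling). The immunoproteasome subunit Psmb8 was among those that rose (1.43 ± 0.21). Of 19 complement genes, 5 rose and 4 fell, against 3 and 5 with the length trend removed. C3, the protein on which all complement routes converge, rose (2.41 ± 0.40) and the terminal component C6 fell (-3.06 ± 0.51). The acute phase gene Lcn2 had 4.8, 372, 11.6 and 1.1 CPM in the RYGB libraries, against 0.5, 0.8, 5.6, 0.6 and 0.4 CPM in the sham libraries. RYGB mouse 2 was far above all others, and the groups overlapped. The log2 fold change of 2.89 ± 1.21 did not pass (adjusted p = 0.0775) and was 1.36 without that mouse.

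Most proteasome genes rose, while the count of ribosomal protein genes that rose depended on the length trend. Of 25 proteasome genes, 20 rose and 0 fell, and 18 rose with the length trend removed. Psmb5, a catalytic subunit (1.54 ± 0.30), and the activator Psme2 (1.32 ± 0.19) were among them. Of 29 cytosolic ribosomal protein genes, 17 rose, among them Rps19 (1.36 ± 0.26) and Rplp0 (0.96 ± 0.21), but only 8 did so with the trend removed, and the count ran over 6 to 24 when 1 library was left out. Reads of ribosomal protein genes can be shared with their processed pseudogenes. Cell division genes gave 5 rises among 22, 10 with median-of-ratios scaling, 11 with the length trend removed and 2 to 11 when 1 library was left out. The proliferation marker Mki67 did not pass, with 11.5, 6.1, 43.2 and 43.7 CPM in the RYGB libraries, against 12.2, 12.7, 5.6, 7.8 and 4 CPM in the sham libraries, high in RYGB mice 3 and 4. Of 23 endoplasmic reticulum chaperone and stress genes, 9 rose and 3 fell, against 5 and 4 with the length trend removed. Calreticulin (Calr) rose (0.85 ± 0.19).

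The same animals allowed the difference in fat to be set against that in gastrocnemius muscle. In 8 animals (4 RYGB, 4 sham) with both tissues, the value in fat minus that in muscle was taken within each animal and compared between operations over 11092 genes. The effect of RYGB differed between the tissues for 1432 genes (12.9%), being higher in fat for 508 (4.58%) and lower for 924 (8.33%). Without RYGB mouse 3 the count was 3642, and without any other of the 8 animals it was 530 to 899. It was higher in fat for 31 of 37 respiratory chain genes (median difference 1.93), 20 of 24 citric acid cycle genes, 13 of 21 fatty acid oxidation genes and 8 of 19 lipogenic genes, and lower in fat for 6 of 8 fat expansion genes and 17 of 36 matrix genes.

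For single genes, the log2 fold change of Fasn was 5.99 ± 0.40 in fat and 1.10 ± 0.54 in muscle, where it did not pass (adjusted p = 0.728). The difference was 4.78 ± 0.41 (adjusted p = 0.000213). The log2 fold change of Sfrp5 was -5.77 ± 0.36 in fat and 0.54 ± 0.26 in muscle, a difference of -6.24 ± 0.38 (adjusted p = 1.66e-05). Synpo2, a gene that muscle expresses strongly, differed by -5.0 ± 0.53 (adjusted p = 0.000489), with 0.01 ± 0.32 in muscle. Lep was low in muscle, with means of 0.675 CPM in RYGB mice and 15.4 CPM in sham mice. Its log2 fold change there of -3.12 ± 0.44 did not pass (adjusted p = 0.0566). The difference between the tissues for Lep, -2.94 ± 0.80 (adjusted p = 0.0343), was lost in 6 of the 8 fits without 1 animal. It was also lost with a pseudocount of 0.1 (-1.725, adjusted p = 0.116). The RYGB mean of Lep in muscle lies below the pseudocount of 1 used in the main fit, which understates changes of low genes. The differences for Slc2a4 (0.60 ± 0.39, adjusted p = 0.303), Ghr (-1.43 ± 0.50, adjusted p = 0.0789) and Cd36 (-0.70 ± 0.56, adjusted p = 0.405) did not pass. A p that misses the threshold does not show that the tissues responded alike.

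**Figure D5:**
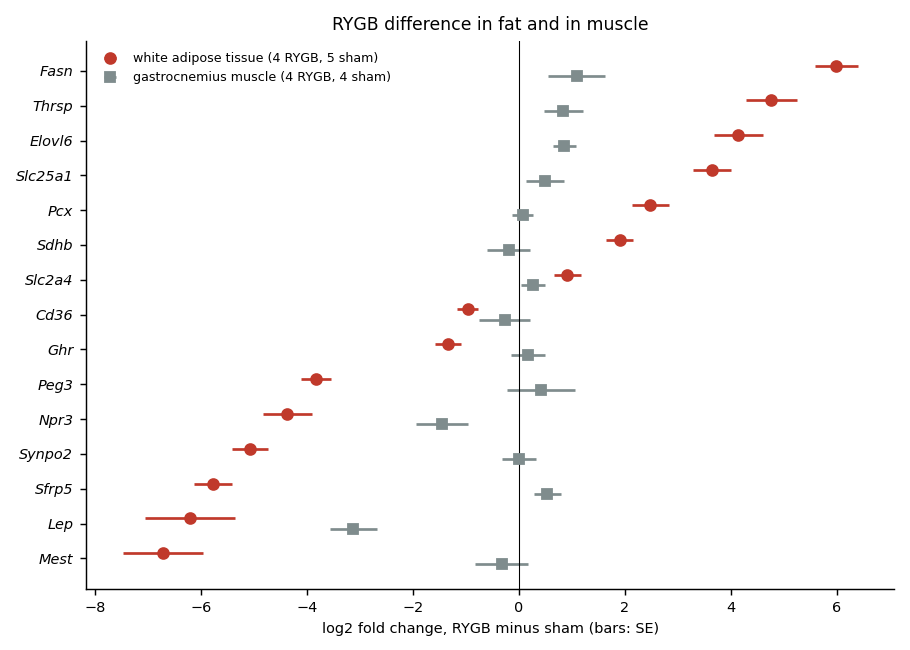
Log2 fold change, RYGB minus sham, of 15 genes in white adipose tissue (red circles, 4 RYGB and 5 sham mice) and gastrocnemius muscle (grey squares, 4 and 4), with SE bars. Fasn is at 5.99 in fat and 1.10 in muscle, and Sfrp5 at -5.77 in fat and 0.54 in muscle.

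In the 8 animals with fat and liver, the effect of RYGB differed for 1245 of 9707 genes (12.8%), 347 higher (3.57%) and 898 lower (9.25%) in fat. The count was 2171 without RYGB mouse 1, and 374 to 819 without RYGB mouse 2 or 4 or sham mouse 3, 4 or 5. Fasn differed by 4.74 ± 0.64 (adjusted p = 0.00099), with 1.18 ± 0.41 in liver, which did not pass there (adjusted p = 0.0816). Mest differed by -7.37 ± 0.99 (adjusted p = 0.00099). Cidea rose in fat and fell in liver (-1.65 ± 0.36), a difference of 6.46 ± 0.72 (adjusted p = 0.000289). Its level in liver was low, with means of 0.14 CPM in RYGB mice and 2.875 CPM in sham mice. For Cd36, which fell in both tissues (-2.30 ± 0.39 in liver), and for Slc25a1 the difference did not pass (adjusted p = 0.117 and 0.457).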

How the data were processed

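Per the labels' protocols, total RNA was taken up with an RNeasy kit and turned into libraries with PrepX. The values are CPM per gene, printed by the authors with 1 decimal in the deposited table. HTSeq counted the reads on build GRCm38, per the submitters' processing notes. Aligner, annotation release and strand setting are not given in the sources, so overlapping and antisense genes may share reads. As 1 read is worth less than the last decimal, whole reads could not be recovered, depth is unknown and no count test was run. Every gene of the table has at least 1 CPM in at least 4 libraries. From 13064 lines, 374 identical repeats were dropped. CPM summed to 981194.5 to 988891.7 per library, and 0 pairs of libraries were identical.

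Samples were grouped by title. The groups were compared with limma 3.58.1 (R 4.3.3; trend and robust options) on log2(CPM + 1), two-sided, with Benjamini-Hochberg adjustment over all 12690 genes and a threshold of 0.05; this scale understates changes of low genes. The differences between tissues used the same test on within-animal differences, fat minus muscle (11092 genes) or fat minus liver (9707 genes), in 4 RYGB and 4 sham animals. The p-values reflect how much these animals varied. Exon lengths came from the GENCODE annotation of GRCm38 (12663 genes), and promoters from RefSeq (GRCm38.p6). Python 3.11.15 with pandas 2.3.3 and matplotlib 3.10.9 was used for tables and figures.

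The comparison, the 53 gene lists and the named genes were chosen with earlier results of these data known. Genes were named by a rule that takes, per direction, the 12 largest fold changes among called genes with a mean of at least 5 CPM, no overlap between groups and no predicted-gene name, up to 6 members of each list by adjusted p and 3 by CPM, the most abundant genes and a short fixed set. The 9 genes Cebpa, Me1, Srebf1, Mlxipl, Ppargc1a, Cpt1a, Nfil3, Hif1a and Emr1 lie outside it and were chosen after their values were seen. A few genes that the rule takes are not reported here.

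The fits were first tested on simulated data, in which 100 genes were changed by 1 and 100 by 2 on the log2 scale. In fat, 61 and 94 of them were recovered. For fat minus muscle, 8 and 71 were recovered, and for fat minus liver 0 and 9. The tests of differences between tissues, above all against liver, thus missed most changes of 1 in this simulation. Of the 162 genes called in simulated fat, 7 had not been changed. The simulation changed far fewer genes than were called in the data. It also gave both groups the same spread per gene, where RYGB libraries varied more in the data (median SD 0.394 against 0.174). It therefore cannot show how the test behaves with unequal spread. Alternatives were median-of-ratios scaling, a pseudocount of 0.1, a mean of at least 5 CPM, the replicate number as a block, library weights, no robust option and each library left out in turn. Removal of a lowess trend with exon length (span 0.3) was added after seeing the data.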

Additional observations from a re-analysis of the deposited data

Results flagged for a closer look

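Dixon's test was run on the RYGB and on the sham libraries of 176 named genes, 352 groups in all, and set 1 library apart in 22. Chance alone sets apart about 1 in 20 groups. Sham mouse 5 was the library in 8 of these. It was lowest of the sham libraries for Lep (436 CPM), Npr3 (1059.6 CPM), Cav2 (651 CPM), Cav1 (1728 CPM) and the retinaldehyde dehydrogenase Aldh1a1 (241 CPM), and highest for Cfd (4254 CPM), Nfil3 (10.2 CPM) and Rgs2 (25.5 CPM). In 7 of these genes that is the direction in which RYGB mice differed from sham mice, and for Cav1, whose difference did not pass the test, the fitted sign is the same. Among other sham libraries, sham mouse 4 was highest for Ucp1 (35 CPM) and lowest for C3 (175 CPM), and sham mouse 3 was lowest for Igf1 (257 CPM) and highest for Lcn2 (5.6 CPM) and Cxcl13 (3.5 CPM).

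Of the RYGB libraries, mouse 2 was lowest for Lep (1.2 CPM) and Cav1 (600 CPM) and highest for the cytochrome Cyp2e1 (16436 CPM) and for Rgs2 (763 CPM). RYGB mouse 3 was lowest for Aldoa (652 CPM) and Taldo1 (299 CPM) and highest for Lgr4 (118 CPM), each time on the side of the sham mice. RYGB mouse 4 was lowest for Bmp3 (7.9 CPM) and Ghr (580.3 CPM).

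The effect of RYGB in fat minus that in muscle passed the test of the difference for Lep (-2.94), Mest (-6.32), Sfrp5 (-6.24), Npr3 (-2.89), Peg3 (-4.18), Synpo2 (-5.00), Fasn (4.78), Slc25a1 (3.03), Thrsp (3.77), Elovl6 (3.32), Sdhb (2.06) and Pcx (2.29), on the log2 scale. Against liver it passed for Mest (-7.37), Fasn (4.74) and Cidea (6.46). Leaving out 1 animal ended the call against muscle in 6 of 8 fits for Lep, Npr3 and Sdhb. With a pseudocount of 0.1 the calls of these genes were lost too (limma adjusted p = 0.116, 0.0546 and 0.0537).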

How the results depend on the processing

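In RYGB against sham fat, 5153 genes were called, and 3936 (without sham mouse 4) to 6151 (without RYGB mouse 3) when 1 library was left out. With the replicate number as a block the count was 4088. The numbers name different animals in the 2 groups, and the deviations of same-numbered libraries correlated at 0.05, -0.08, 0.13 and -0.10, so that they do not pair the samples. Of 157 called genes named in the text, 157 kept their call under median-of-ratios scaling, a pseudocount of 0.1, the filter at 5 CPM and without robust moderation, 155 under the block, under library weights and with the length trend removed, and 154 to 157 when a library was left out. None of them changed sign in these fits. Calls were lost in at least 1 fit for Ucp1, Srebf1, Pnpla2, Nfil3, Cd68 and Tle3 (length trend removed, -0.62, adjusted p = 0.0587). Signs turned for 4 genes that were not called. Adipoq came to -0.001 and Insr to 0.145 with the length trend removed. Igf1 came to 0.169 with median-of-ratios scaling, 0.002 under the block, 0.010 with library weights, 0.443 with the length trend removed and -0.381 to 0.203 without 1 library. Emr1 came to -0.132 to 0.545 without 1 library. Differences between tissues depended on single animals: 530 to 3642 genes were called against muscle (1432 with all animals) and 374 to 2171 against liver (1245 with all animals), and 739 against liver with a pseudocount of 0.1; the cause was not tested. Depth is unknown, so counting error could not be given for low genes.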

Other observations

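Retinoid and prostaglandin genes held large differences in both directions. Of 14 retinoid genes, 3 rose and 6 fell. Aldh1a1, which makes retinoic acid from retinaldehyde, had 74.7, 61.1, 67.1 and 45.5 CPM in the RYGB libraries, against 544, 448, 434, 534 and 241 CPM in the sham libraries (-2.77 ± 0.24, limma adjusted p = 6.48e-05), with no overlap. Dhrs3, which returns retinaldehyde to retinol, fell as well (-1.27 ± 0.19). Of 14 steroid and prostaglandin enzymes, 3 rose and 3 fell, where 14.3% of all genes rose and 26.3% fell. Hpgd, which inactivates prostaglandins, had 16.8, 7, 38.4 and 21.8 CPM in the RYGB libraries, against 229, 204, 348, 331 and 168 CPM in the sham libraries (-3.71 ± 0.40, adjusted p = 0.000172). Cyp2e1, a cytochrome that oxidises ethanol and ketones, had 3096, 16436, 3247 and 2722 CPM in the RYGB libraries, against 273, 687, 355, 347 and 1524 CPM in the sham libraries (3.17 ± 0.61, adjusted p = 0.00272). RYGB mouse 2 and sham mouse 5 were the highest of their groups, and the groups did not overlap. Ferroportin (Slc40a1), the iron exporter, fell (-2.60 ± 0.40). Of 25 NRF2 and glutathione genes, 10 rose and 4 fell, against 12 and 4 with the length trend removed. The extracellular superoxide dismutase Sod3 was among those that fell (-1.22 ± 0.15).

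Several of the largest differences lay outside the groups described so far. The sulphurtransferase Tst had 115, 269.7, 61.6 and 112 CPM in the RYGB libraries, against 3.8, 8, 4.2, 5.2 and 11 CPM in the sham libraries (4.13 ± 0.40, adjusted p = 0.000102). The asparaginase Aspg (4.17 ± 0.47) and Rgs2, a brake on G protein signalling (3.95 ± 0.53), rose as well. Vgll3, a cofactor of TEAD transcription factors, had 3, 5.9, 10.8 and 7.2 CPM in the RYGB libraries, against 327, 142, 257, 171 and 74 CPM in the sham libraries (-4.59 ± 0.42, adjusted p = 7.57e-05). Among those that fell were the calcium channel subunit Cacna1e (-5.0 ± 0.65), the GABA receptor subunit Gabrr2 (-4.37 ± 0.28) and the choline transporter Slc5a7 (-4.43 ± 0.70). Each was lower in every RYGB mouse than in any sham mouse. In Slc5a7 the RYGB libraries had 0.2, 0, 0.6 and 0.3 CPM, against 48.2, 15, 94.5, 39.8 and 3.8 CPM in the sham libraries.

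Counts in other lists of cell types and responses stand beside 14.3% of all genes that rose and 26.3% that fell. Of 16 glucocorticoid response genes, 0 rose and 2 fell (0 fell with median-of-ratios scaling). Of 17 T and natural killer cell genes, 2 rose and 0 fell (0 and 0 with the length trend removed). Of 10 Schwann cell and nerve genes, 1 rose and 2 fell (3 and 2 with the length trend removed). Of 12 MHC class II and dendritic cell genes, 1 rose and 1 fell. The summed level of these 12 genes was 238 to 3055.5 CPM in RYGB libraries, highest in RYGB mouse 4, and 866 to 1692 CPM in sham libraries. Few calls do not show that the groups were alike.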
